A study of Mus musculus with 105 samples.

Results

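The pluripotency genes described here are 33 genes of the mouse embryonic stem cell network, taken as a named list and found by symbol among the 54532 Ensembl gene identifiers of the messenger RNA table. They comprise 4 core factors, 14 genes of the naive (ground) state, 10 genes shared by the naive and later states, and 5 genes associated with the primed, post-implantation state. All 33 had an identifier in the table, and all 33 passed the filter on low counts together with 18061 other genes.

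Messenger RNA was measured in 6 libraries, 2 from each of 3 mouse lines. CIMEF are embryonic fibroblasts of strain C57BL/6J held at contact inhibition, where crowded cells stop dividing, for 5 days. DMEF are embryonic fibroblasts of the same strain that kept dividing in DMEM with 10% FBS. ESC are the embryonic stem cell line v6.5, labelled C57BL/6, grown with the cytokine LIF, the MEK inhibitor PD0325901 and the GSK3 inhibitor CHIR99021. All lines were at passages 5 to 15, no allele is labelled in any of them, and the labels do not say whether replicates came from separate cultures. The p-values below therefore measure the spread between libraries, which may be technical. The protocol shared by the series feeds cells the uridine analogue 5-ethynyluridine, and the labels give no labelling time for the mRNA libraries. The rest of the series concerns small RNA and was not used here.

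Pluripotency is the ability of a cell to form every tissue of the embryo, and it is held by a small group of transcription factors that bind their own and each other's regulatory regions. The core factors Pou5f1 (Oct4) and Sox2 bind DNA side by side, and Nanog stabilises the state. In the naive state, LIF acts through STAT3 and the GSK3 inhibitor acts through beta-catenin on factors such as Klf4, Tfcp2l1 and Esrrb, while the MEK inhibitor blocks the FGF signal that pushes cells towards the primed state. Fibroblasts are differentiated mesenchymal cells in which most of this network is known to be silent.

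Promoters that carry the POU core, the 7 letters TTTGCAT bound by Oct4-like factors, are shown first, since Oct4 is itself a member. Promoter windows from RefSeq (GRCm38.p6), running from 250 bases before to 50 after an annotated start, were matched for 21 of the 33 members. The bases before the start are printed for the 3 members that held the POU core, 5′ to 3′ on the gene's strand, with the match in capitals. In Nanog the capitals cover the POU core, 1 further base and the SOX core ACAA. In Sox2 they mark the core on the opposite strand.
Nanog, chr6:122707239-122707488, plus strand: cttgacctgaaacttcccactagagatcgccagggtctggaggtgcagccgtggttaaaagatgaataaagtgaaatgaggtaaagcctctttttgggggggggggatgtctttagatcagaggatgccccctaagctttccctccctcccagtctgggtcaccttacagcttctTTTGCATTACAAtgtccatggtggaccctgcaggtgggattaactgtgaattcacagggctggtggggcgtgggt
Sox2, chr3:34649745-34649994, plus strand: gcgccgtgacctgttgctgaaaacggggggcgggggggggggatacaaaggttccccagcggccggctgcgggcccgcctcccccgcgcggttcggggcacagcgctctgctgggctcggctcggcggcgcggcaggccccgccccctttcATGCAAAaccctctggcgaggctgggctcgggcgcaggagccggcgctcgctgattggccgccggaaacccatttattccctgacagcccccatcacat
Zfp42, chr8:43307010-43307259, minus strand: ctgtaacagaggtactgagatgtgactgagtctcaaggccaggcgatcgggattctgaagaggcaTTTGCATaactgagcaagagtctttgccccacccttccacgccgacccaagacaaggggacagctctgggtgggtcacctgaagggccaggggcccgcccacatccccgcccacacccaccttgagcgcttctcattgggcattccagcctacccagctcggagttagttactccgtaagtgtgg

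The first matching base lay at -75 in Nanog (at -151 from a second annotated start), at -99 in Sox2 and at -185 in Zfp42. On both strands, the POU core occurred in 3 of 21 members (14.3%) and in 5.23% of the 27004 other genes of the promoter table. It occurred in 4.63% of all 32851 windows. The joined POU and SOX element, which contains the POU core, occurred in Nanog alone among the 21 members and in 9 of 27004 other genes (0.0333%). Of those 9 genes, 5 were tested for expression here. Among them, Pipox (log2 6.97 over DMEF and 6.29 over CIMEF) and Astn1 (4.77 and 4.61) were higher in ESC in both contrasts, and Exoc1 (0.08 and -0.02) passed in neither. Nrarp was lower in ESC than in DMEF (-1.26) and Idua lower than in CIMEF (-2.13), and these 5 genes were named after their values were seen. The KLF element GGGNGTGGC occurred in 1 of 21 members, Tfcp2l1, at -48 on the opposite strand, against 6.6% of other genes. The ESRRB element TCAAGGTCA occurred in 0 of 21 members and in 0.467% of other genes. A match of letters is a description of these windows and does not show binding.

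The libraries held 23030907 to 34093791 counts. Levels are given as CPM, the count divided by the library total and multiplied by 1e+06, with totals scaled by TMM, an adjustment for differences in RNA composition. CPM is not divided by gene length, so levels are compared between libraries and never between genes. The 10 fibroblast markers summed to 14020 to 31220 CPM in the fibroblast libraries and to 280 and 334.9 CPM in ESC, with none at 0 in any library. In the test described below, 9 of 10 were lower in ESC than in DMEF and 9 than in CIMEF. Of all genes, 30.5% and 37.7% were lower. Lum, at 0.360 and 0.387 CPM in DMEF, did not pass against DMEF. Thy1, at 36.2 and 1.18 CPM in CIMEF and 3.07 and 3.69 in ESC, did not pass against CIMEF. Markers of other embryonic cell types were uneven in ESC. The primitive endoderm markers summed to 4.16 and 3.95 CPM with Ttr at 0, the 5 mesoderm markers to 13.9 and 14.2 CPM, mostly T, and the 5 germ cell markers to 28.5 and 27.6 CPM. The 6 neural markers summed to 81.7 and 77.7 CPM, mostly the tubulin gene Tubb3, with Neurog2 at 0. The 5 trophoblast markers summed to 65.98 and 65.97 CPM in ESC and to 49.9 to 83.5 CPM in the fibroblast libraries, mostly Eomes in ESC.

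Every member was higher in ESC than in either fibroblast line. With edgeR's quasi-likelihood test and an adjusted p below 0.05 over all 18094 genes, 33 of 33 members were higher in ESC than in DMEF, where 30.3% of all genes tested were higher and 30.5% lower. Likewise 33 of 33 were higher in ESC than in CIMEF, where 38.2% of all genes were higher and 37.7% lower. Of these 33, Dppa3, Dppa2, Dppa4, Otx2 and Lefty1 passed the filter on low counts only through ESC. Their calls are therefore not independent of the filter. In all 33, both ESC libraries lay above all 4 fibroblast libraries. The median log2 difference over the members was 6.85 against DMEF and 6.89 against CIMEF, beside 0.06 and 0.06 over all genes. The 2 contrasts share the ESC libraries. In bulk libraries, fewer cells that express a gene and less RNA per cell cannot be told apart.

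**Figure D1:**
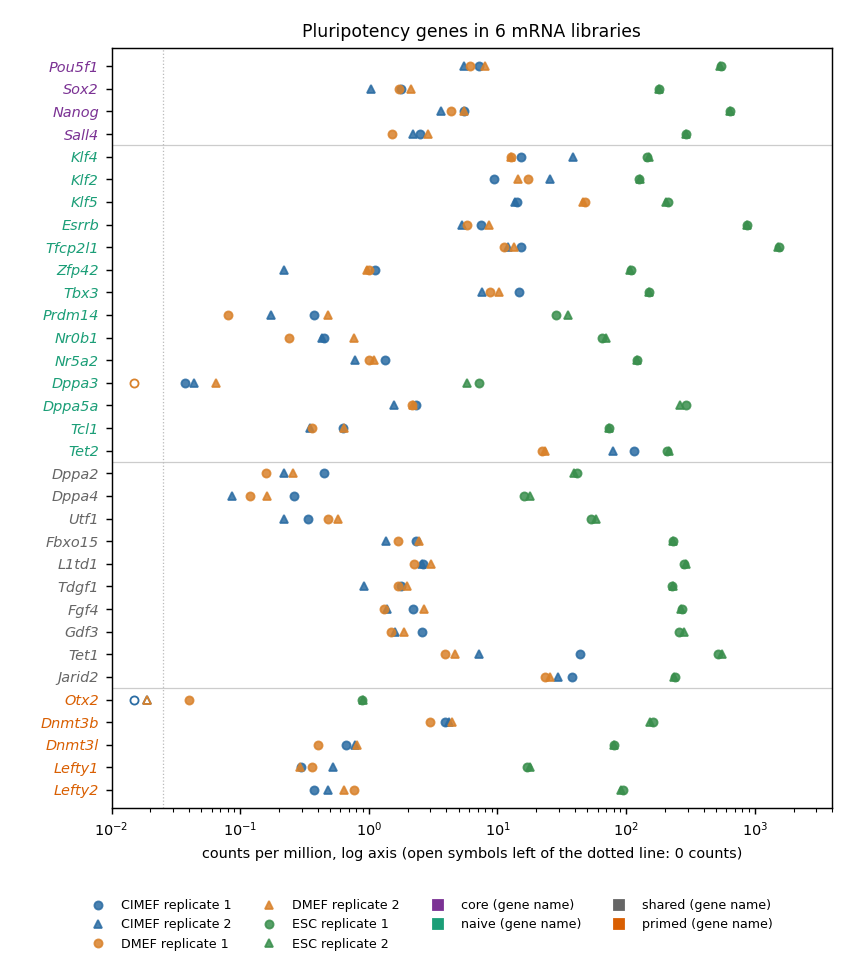
CPM of each of the 33 members in each of the 6 libraries on a log axis, with circles for replicate 1 and triangles for replicate 2 and gene names coloured by class. Green ESC symbols lie to the right of every fibroblast symbol in all 33 rows, and Klf4, Klf2, Klf5, Tet2 and Jarid2 show the shorter distances.

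The size of these differences has to be read beside a common floor in the fibroblast libraries. Among 4000 non-member genes with at least 50 CPM in ESC, 77 lay under 2% of their ESC level in all 4 fibroblast libraries. Across those 77 genes, the median share of the ESC level was 0.984% in CIMEF replicate 1, 0.585% in CIMEF replicate 2, 0.765% in DMEF replicate 1 and 1.03% in DMEF replicate 2. No gene of the 4000 fell below 0.385%, 0.153%, 0.284% and 0.466% in these libraries.

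Of the 32 members with at least 100 counts in each ESC library, 23 lay under 2% in all 4 fibroblast libraries. Their median shares were 0.866% and 0.578% in CIMEF and 0.704% and 0.989% in DMEF. CIMEF replicate 1 was above replicate 2 in 20 of these 23 members, and DMEF replicate 2 above replicate 1 in 21, the same order as in the 77 other genes. A log2 difference near 7 corresponds to such a share, so for these 23 members the fitted difference restates it. Whether the reads at the floor were transcribed in the fibroblasts was not tested. In the other direction, of the genes at 50 CPM or more in a fibroblast line, none fell below 0.266% of that level in an ESC library. The minimum of 50 CPM and the limit of 2% were set after the distribution was seen.

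**Figure D2:**
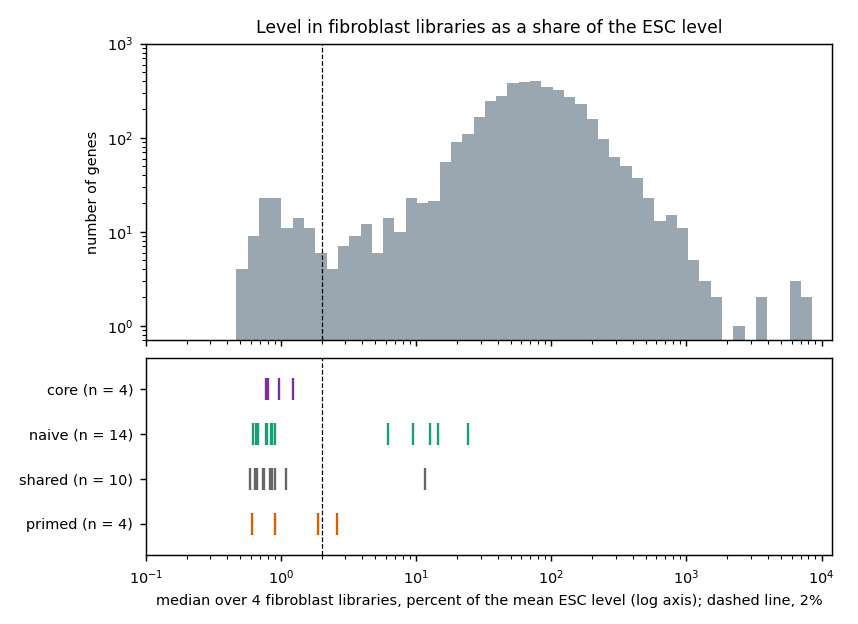
Top, number of non-member genes (log axis) by the median of their 4 fibroblast libraries as a percent of the mean ESC level (log axis). Bottom, the 32 members that could be placed, 1 tick each by class. Most ticks lie under the small left-hand mode below the dashed 2% line, and 5 naive members and 1 shared member lie well to its right.

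The core factors were far higher in ESC and lay under 2% of that level in all 4 fibroblast libraries. Pou5f1, the POU factor Oct4, stood at 545.7 and 535.2 CPM in ESC, at 7.21 and 5.53 in CIMEF and at 6.09 and 8.02 in DMEF. The 4 fibroblast libraries interleaved, and both ESC libraries lay far above them. The difference was a log2 of 6.26 ± 0.23 (SE) from DMEF (edgeR adjusted p = 3.41e-06) and 6.40 ± 0.23 from CIMEF (3.4e-06). Its shares of the ESC level were 1.33% and 1.02% in CIMEF and 1.13% and 1.48% in DMEF, each above the median share of its library. In CIMEF replicate 2 and DMEF replicate 2 they also exceeded the 90th percentile of the 77 genes (0.926% and 1.41%). With the median share removed, 1.90 and 2.37 CPM were left in CIMEF and 1.95 and 2.43 in DMEF.

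Nanog, a homeodomain factor, stood at 639.3 and 638.9 CPM in ESC, 5.47 and 3.61 in CIMEF and 4.36 and 5.54 in DMEF. Both fibroblast lines overlapped. Its shares of 0.855%, 0.565%, 0.683% and 0.867% in CIMEF 1 and 2 and DMEF 1 and 2 were below the median of the 77 genes in each library. Its log2 difference was 7.01 ± 0.26 over DMEF and 7.13 ± 0.26 over CIMEF.

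Sox2, the HMG-box partner of Oct4, stood at 180.7 CPM in both ESC libraries, at 1.78 and 1.04 in CIMEF and at 1.72 and 2.13 in DMEF (log2 6.54 ± 0.27 and 6.98 ± 0.28). It lies inside the noncoding gene Sox2ot, which had 18 and 26 counts in ESC against 5131 and 4853 for Sox2. Sall4, a zinc-finger factor that binds with Oct4, was at 292.5 and 293.9 CPM in ESC and between 1.52 and 2.90 in the fibroblast libraries (log2 7.03 ± 0.31 and 6.95 ± 0.31). Without DMEF replicate 2 its difference from DMEF was 7.63. No core factor passed the test between CIMEF and DMEF.

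The 14 naive genes fell into members at the fibroblast floor and members with a level of their own above it. Esrrb, a nuclear receptor that responds to GSK3 inhibition, stood at 866.3 and 868.9 CPM in ESC, 7.51 and 5.27 in CIMEF and 5.84 and 8.60 in DMEF (log2 6.90 ± 0.29 and 7.08 ± 0.29). Tfcp2l1, a factor downstream of STAT3, stood at 1537 and 1520 CPM in ESC and between 11.2 and 15.3 CPM in the 4 fibroblast libraries (log2 6.95 ± 0.22 and 6.80 ± 0.21). For both, the fibroblast lines overlapped at about 1% of the ESC level or less.

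Zfp42 (Rex1), a zinc-finger marker of the naive state, stood at 109.7 and 107.6 CPM in ESC, 1.11 and 0.218 in CIMEF and 1.00 and 0.966 in DMEF. CIMEF replicate 2 stood apart with 5 counts. The difference from CIMEF was 7.29 ± 0.51 with both libraries, 8.86 without CIMEF replicate 1 and 6.59 without CIMEF replicate 2, and that from DMEF was 6.78 ± 0.49.

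Other naive regulators showed the same contrast. Nr5a2 (Lrh-1), a nuclear receptor that binds the Pou5f1 locus, stood at 122.4 and 120.8 CPM in ESC and between 0.784 and 1.34 in fibroblasts. Nr0b1 (Dax1), a nuclear receptor without a classical DNA-binding domain, stood at 65.1 and 69.3 CPM against 0.240 to 0.773. Prdm14, which restrains FGF signalling and de novo DNA methylation, stood at 28.2 and 35.1 CPM against 0.080 to 0.483. Their log2 differences from DMEF were 6.85, 6.99 and 6.72, and those from CIMEF 6.82, 7.24 and 6.81. At these counts 1 library moved the fitted value: without DMEF replicate 2 the difference from DMEF was 8.14 for Nr0b1 and 8.59 for Prdm14, and Prdm14 gave 6.06 without DMEF replicate 1. Prdm14 gave 7.39 over CIMEF without CIMEF replicate 1.

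Dppa5a, an RNA-binding protein of the early embryo, stood at 293 and 263.2 CPM in ESC against 1.57 to 2.31 in fibroblasts (log2 6.99 ± 0.23 and 7.15 ± 0.23). Tcl1, a co-activator of AKT, stood at 74.0 and 73.8 CPM against 0.348 to 0.644 (7.16 ± 0.34 and 7.201 ± 0.34). Dppa3 (Stella), which protects methylation in the zygote, had 360 counts in ESC over both libraries, 2 in CIMEF and 2 in DMEF. The ratio of scaled counts was 162 over CIMEF (95% exact binomial interval 44.7 to 1.35e+03) and 183 over DMEF (50.2 to 1.51e+03). These intervals cover counting error only, since reads are not independent molecules.

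Klf4, Klf2, Klf5, Tbx3, Tet2 and Jarid2, 6 of these 32 members, lay above 2% of the ESC level in all 4 fibroblast libraries. Tet1, Dnmt3b and Lefty1 were above it in at least 1 library, which makes 9 of 32. Just outside the limit were Lefty1 with 1.71%, 2.99%, 2.06% and 1.66% and Dnmt3b with 2.50%, 2.68%, 1.91% and 2.82%, and just inside it the highest value of the 23 members was 1.53%. Otx2 had too few counts to be placed.

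Klf4, a Krüppel-like factor that is also expressed in fibroblasts, stood at 144.2 and 149.3 CPM in ESC, 15.3 and 38.6 in CIMEF and 12.7 in both DMEF libraries. CIMEF replicate 2 was the highest fibroblast library by far. The log2 difference was 3.53 ± 0.41 from DMEF (edgeR adjusted p = 0.000304) and 2.45 ± 0.39 from CIMEF (0.00107), the latter 1.85 without CIMEF replicate 1 and 3.25 without CIMEF replicate 2.

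Klf2, its relative in the naive network, stood at 124.8 and 127.1 CPM in ESC, 9.44 and 25.6 in CIMEF and 17.3 and 14.6 in DMEF. The CIMEF libraries lay on either side of both DMEF libraries. ESC were higher by 2.98 ± 0.43 than DMEF and by 2.85 ± 0.42 than CIMEF, the latter 2.22 and 3.73 without CIMEF replicate 1 and 2.

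Klf5 stood at 209.7 and 205.4 CPM in ESC, 14.2 and 13.7 in CIMEF and 47.8 and 46.4 in DMEF. The 3 lines did not overlap and replicates lay close together. The log2 difference was 2.14 ± 0.13 from DMEF and 3.90 ± 0.14 from CIMEF. Tbx3, a T-box factor also used in limb and mesenchyme, stood at 151.2 and 151.7 CPM in ESC, 14.6 and 7.53 in CIMEF and 8.69 and 10.2 in DMEF (4.00 ± 0.32 and 3.77 ± 0.31). It overlaps the antisense gene Tbx3os1, which had 14 to 18 counts in ESC and 0 to 15 in fibroblasts.

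Tet2, an enzyme that oxidises methylated cytosine, came closest to its ESC level in a fibroblast line. It stood at 207.5 and 216 CPM in ESC, 114.2 and 79.4 in CIMEF and 22.1 and 23.6 in DMEF. The lines did not overlap, and CIMEF lay between the others, at 54.0% and 37.5% of the ESC level. Its log2 difference was 3.21 ± 0.20 from DMEF (adjusted p = 1.88e-05 in edgeR) and 1.13 ± 0.19 from CIMEF (0.00136).

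**Figure D3:**
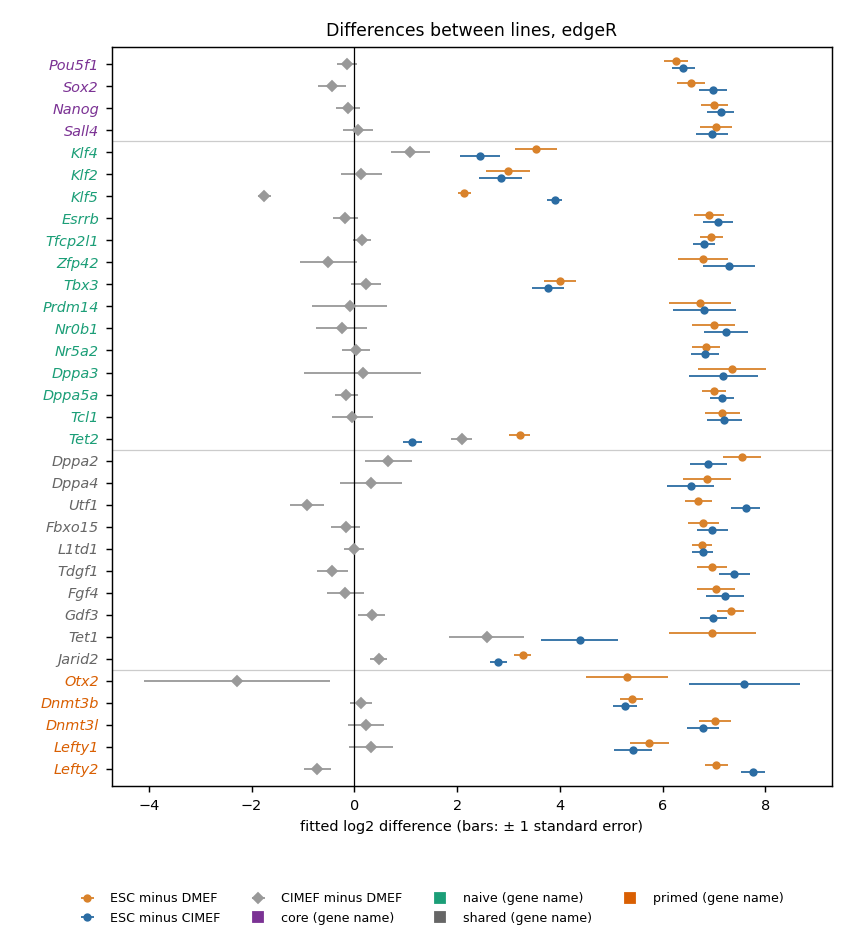
Fitted log2 difference of each member with 1 standard error either side, for ESC minus DMEF (orange), ESC minus CIMEF (blue) and CIMEF minus DMEF (grey diamonds). Most ESC differences lie between 6.26 and 7.76, the 6 members expressed in fibroblasts lie between 1.13 and 4.00, and most grey diamonds lie near 0.

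The 10 shared genes include signals and chromatin proteins. Fgf4, the ligand whose ERK signal drives exit from the naive state, stood at 269.5 and 265.8 CPM in ESC and between 1.32 and 2.71 in fibroblasts (log2 7.03 ± 0.37 over DMEF and 7.21 ± 0.37 over CIMEF). Without DMEF replicate 2 the difference from DMEF was 7.70. Gdf3, a TGF-beta family ligand, stood at 259.4 and 280.2 CPM against 1.48 to 2.60 (7.32 ± 0.27 and 6.99 ± 0.27). Tdgf1 (Cripto), the co-receptor of Nodal, stood at 227.3 and 232.7 CPM against 0.914 to 2.00 (6.96 ± 0.29 and 7.39 ± 0.30). Ligands and co-receptor were thus all higher in ESC.

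Dppa2 and Dppa4, DNA-binding SAP-domain partners, stood at 41.5 and 39.6 CPM and at 16.2 and 17.9 CPM in ESC. In fibroblasts they ranged from 0.160 to 0.446 and from 0.087 to 0.260 CPM. The differences from DMEF were 7.54 ± 0.37 and 6.86 ± 0.47. Those from CIMEF were 6.89 ± 0.36 and 6.54 ± 0.46, the latter 7.46 without CIMEF replicate 1. Utf1, a chromatin-bound factor, stood at 53.3 and 57.9 CPM in ESC and at 0.218 to 0.580 in fibroblasts (6.69 ± 0.26 and 7.61 ± 0.28).

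L1td1, an RNA-binding protein derived from a LINE-1 element, stood at 282.6 and 294.5 CPM in ESC against 2.24 to 3.03 (6.76 ± 0.20 and 6.78 ± 0.20). Fbxo15, an F-box protein and a target of Oct4 and Sox2, stood at 229.4 and 232.9 CPM against 1.35 to 2.45 (6.79 ± 0.30 and 6.97 ± 0.30). It overlaps Timm21 over 5340 bases, and the strand setting of the counting is not given in the sources used here.

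Jarid2, a DNA-binding partner of the repressive complex PRC2, stood at 238.8 and 233.5 CPM in ESC, 38.1 and 29.7 in CIMEF and 23.4 and 25.5 in DMEF. Both CIMEF libraries lay above both DMEF libraries. The difference on the log2 scale was 3.27 ± 0.17 from DMEF and 2.80 ± 0.17 from CIMEF. Tet1, the relative of Tet2, stood at 519.6 and 553 CPM in ESC, 44.0 and 7.14 in CIMEF and 3.92 and 4.64 in DMEF. CIMEF replicate 1 held 8.20% of the ESC level and the other 3 fibroblast libraries 0.73% to 1.33%. ESC were higher by 6.96 ± 0.85 than DMEF and by 4.39 ± 0.75 than CIMEF, the latter 6.15 without CIMEF replicate 1 and 3.595 without CIMEF replicate 2.

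All 5 primed genes were also higher in ESC than in either fibroblast line, although the cells were grown in naive medium. Dnmt3b, a de novo DNA methyltransferase, stood at 162.4 and 152.6 CPM in ESC, 3.94 and 4.22 in CIMEF and 3.00 and 4.45 in DMEF (log2 5.39 ± 0.23 over DMEF and 5.27 ± 0.23 over CIMEF). Its catalytically inactive cofactor Dnmt3l stood at 80.1 CPM in both ESC libraries against 0.400 to 0.805 in fibroblasts (7.01 ± 0.31 and 6.78 ± 0.31). Without DMEF replicate 2 the difference of Dnmt3l from DMEF was 7.67.

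Lefty1 and Lefty2 are secreted inhibitors of Nodal and lie near each other on chromosome 1. Lefty2 stood at 93.7 and 91.6 CPM in ESC and between 0.372 and 0.761 in fibroblasts (7.04 ± 0.22 and 7.76 ± 0.23). Lefty1 stood at 16.9 and 18.0 CPM in ESC and between 0.290 and 0.522 in fibroblasts (5.74 ± 0.38 and 5.41 ± 0.37). The genes are close paralogs, so reads may have been split between them, as also for Pou5f1, Nanog and Dppa5a, which have processed copies in the genome.

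Otx2, a homeobox factor of the step out of the naive state, had 25 and 24 counts in the ESC libraries (0.881 and 0.894 CPM), 0 in both CIMEF libraries and 1 and 0 in DMEF. It was at least 14.7-fold higher in ESC than in CIMEF, with a floor of 3 counts over both CIMEF libraries. The ratio over DMEF was 49.7 (95% exact binomial interval 8.51 to 2e+03). Both the DMEF and the CIMEF contrast passed the test in edgeR (adjusted p = 0.00183 and 0.0011). Otx2 passed the filter on low counts only through ESC, so these p-values are not independent of the filter.

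By class, the median log2 difference from DMEF was 6.78 for core, 6.82 for naive, 6.91 for shared and 5.74 for primed genes. From CIMEF it was 6.97, 6.81, 6.93 and 6.78. These medians are bounded by the fibroblast floor, and the differences between classes were not tested. The primed median from DMEF is the value of Lefty1, which like Otx2 passed the filter on low counts only through ESC. Dppa3 among the naive genes and Dppa2 and Dppa4 among the shared genes passed in the same way. Summed over class, core genes reached 1658 and 1649 CPM in ESC, naive genes 3940 and 3914, shared genes 2137 and 2208 and primed genes 353.9 and 343.2. The ratio of summed naive to summed primed CPM was 11.1 and 11.4 in the ESC libraries (mean 11.27 ± 0.19, SD, n = 2), 37.3 and 30.9 in CIMEF and 28.6 and 21.95 in DMEF. The fibroblast sums rest on few genes, with Tet2 alone at 114.2 of 196.7 CPM in CIMEF replicate 1. Tfcp2l1 and Dnmt3b had the largest ESC values of their classes. Without them the ratio was 12.55 in ESC, 135.6 and 97.3 in CIMEF and 76.4 and 70.3 in DMEF. In CIMEF replicate 1, Dnmt3b made up 3.94 of 5.28 CPM of the primed sum, and Tfcp2l1 15.3 of 196.7 CPM of the naive sum. The fibroblast ratios thus depend strongly on Dnmt3b. Since CPM carries no gene length, the ratio compares libraries and not the 2 states within a library.

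Between the fibroblast lines, contact-inhibited and dividing, few members passed the test. Otx2, Dppa2, Dppa3, Dppa4 and Lefty1 passed the filter on low counts only through ESC, and 28 members passed it in the 4 fibroblast libraries alone. In CIMEF against DMEF, 2 of these 28 were higher (19.5% of all genes tested were), 1 was lower (21.1% of all genes) and 25 did not pass. Most of the 25 sat at the fibroblast floor, so the comparison bears mainly on the members above it.

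Tet2 was higher in CIMEF, with a log2 difference of 2.08 ± 0.20 (edgeR adjusted p = 0.000887), with both CIMEF libraries above both DMEF libraries. Klf5 was lower in CIMEF by -1.76 ± 0.13 (adjusted p = 0.000504 in edgeR), again without overlap. Tet1 was higher by 2.58 ± 0.73 (edgeR adjusted p = 0.0289), but CIMEF replicate 1 carried most of it: the difference was 0.80 without that library and 3.35 without CIMEF replicate 2. The Tet1 call was lost without DMEF replicate 1 (adjusted p = 0.161) or DMEF replicate 2 (0.164).

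Among members that did not pass, Klf4 differed by 1.08 ± 0.38 (edgeR adjusted p = 0.0583), Jarid2 by 0.47 ± 0.16 (0.0512) and Utf1 by -0.92 ± 0.33 (0.0826). Klf4 depended on CIMEF replicate 2: its difference was 1.67 (adjusted p = 0.000207 in edgeR) without CIMEF replicate 1 and 0.27 (0.189) without CIMEF replicate 2. Klf2 differed by 0.13 ± 0.40, by 0.75 (edgeR adjusted p = 0.00972) without CIMEF replicate 1 and by -0.76 (0.0117) without CIMEF replicate 2, so each CIMEF library alone gave a call of opposite direction. The CIMEF libraries differed more from each other than those of the other lines, with an SD of the log2 difference between replicates over genes of 0.81, against 0.54 in DMEF and 0.36 in ESC.

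**Figure D4:**
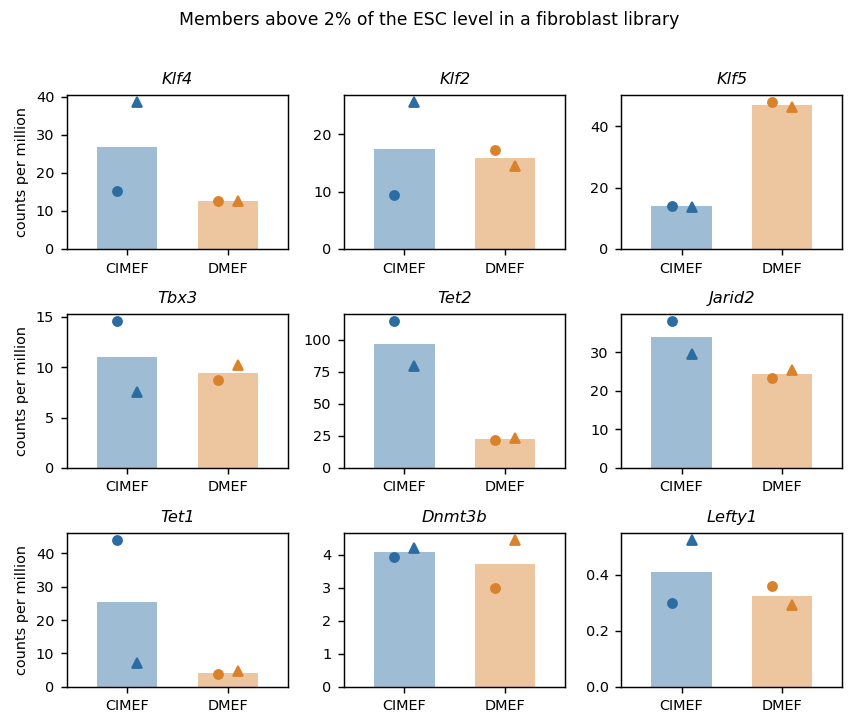
CPM in the CIMEF (blue) and DMEF (orange) libraries of the 9 members that exceeded 2% of the ESC level in a fibroblast library; bars are means of 2 libraries and symbols the libraries (circle replicate 1, triangle replicate 2). Tet2 and Klf5 separate the lines, and Klf4, Klf2 and Tet1 differ widely between CIMEF replicates.

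Genes around the members were described from lists of the same pathways, with counts given against DMEF first and CIMEF second. Of all genes tested, 30.3% and 38.2% were higher in ESC and 30.5% and 37.7% lower. No list was tested against these shares. Genes with few counts in fibroblasts could pass the filter on low counts only through ESC, so their calls are not independent of it. Of 10 other stem cell network factors, 10 and 9 were higher in ESC and none lower. Among them, Eras and Foxd3 had at most 3 counts in any fibroblast library and passed this filter only through ESC. Zscan10, a zinc-finger factor, stood at 119.6 CPM in both ESC libraries and differed by 6.90 and 7.53. Eras, a Ras-like protein of stem cells, was at 6.38 and 8.71 CPM in ESC, at 0.04 and 0 in CIMEF and at 0.04 and 0 in DMEF.

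Of 7 primed or formative genes outside the members, 5 and 6 were higher in ESC and 1 was lower in both contrasts. Among the higher genes, Sox3, Grhl2 and Cldn6 had at most 2 counts in any fibroblast library. They passed the filter on low counts only through ESC. The gene that was lower is Fgf5, the classical marker of primed epiblast, at 0.528 and 0.558 CPM in ESC, 9.82 and 6.96 in CIMEF and 34.6 and 27.2 in DMEF (log2 -5.82 and -3.94). Pou3f1 (Oct6), at 0.810 and 0.819 CPM in ESC, differed by 1.13 from DMEF (edgeR adjusted p = 0.0791) and by 2.48 from CIMEF (0.00585). Zic2, at 115.4 and 107.2 CPM in ESC, differed by 6.13 and 4.93.

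The signalling lists were mixed, and several of their counts lay near the shares of all genes given above. For the LIF pathway 4 and 3 of 7 genes were higher in ESC and 3 and 3 lower, and the 4 became 2 without ESC replicate 1 or without ESC replicate 2. Lifr, the LIF receptor, differed by 0.52 from DMEF and by -0.95 from CIMEF, its partner Il6st (gp130) by -2.98 and -3.001, and Stat3 by -0.62 (edgeR adjusted p = 0.013) and -0.05 (0.776). Of 11 MEK and ERK output genes 5 were higher and 5 lower in both contrasts. The first 3 listed, Dusp6 (0.98 and 1.94), Spry4 (3.40 and 3.51) and Etv4 (2.72 and 4.21), were higher in ESC, whose medium held the MEK inhibitor. The 5 lower genes, named after their values were seen, were the immediate early genes Egr1 (-5.23 and -5.42) and Fos (-3.90 and -3.28), with Ier3 (-4.76 and -2.07), Phlda1 (-4.44 and -2.12) and Spred1 (-1.11 and -1.38). Egr1 and Fos also differed between replicates 1 and 2, in the same order in both fibroblast lines. Egr1 stood at 155.4 and 49.01 CPM in CIMEF and at 151.8 and 28.25 in DMEF. Fos stood at 14.35 and 5.79 CPM in CIMEF and at 23.62 and 7.50 in DMEF. The contrast is between cell types, and no library without the inhibitor was compared.

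Of 8 Wnt and beta-catenin genes, 6 and 5 were higher and 0 and 2 lower. Axin2, a direct target, stood at 92.96 and 90.80 CPM in ESC, 9.63 and 8.23 in CIMEF and 2.92 and 3.77 in DMEF (4.77 and 3.36). Lef1 differed by 3.93 and 4.16. Tcf7l1, the repressor that beta-catenin relieves, differed by -0.30 from DMEF (edgeR adjusted p = 0.107) and by -0.96 from CIMEF (0.000884).

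Of 11 tested Nodal and activin genes (12 listed, Cfc1 not tested), 5 and 6 were higher and 4 and 3 lower. Nodal, the ligand that the Lefty proteins oppose, stood at 46.3 and 42.8 CPM in ESC and 0.218 to 0.387 in fibroblasts (7.11 and 7.29). Its nuclear partner Foxh1 differed by 7.19 and 6.89 and its receptor Acvr2b by 3.50 and 3.17. Lower in both contrasts, and named after their values were seen, were the signal transducer Smad3 (-2.12 and -2.25), its co-repressor Skil (-2.61 and -2.19) and the protease gene Furin (-2.42 and -1.45). The list thus held members of either direction.

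Of 11 PRC2 genes, 6 were higher in each contrast and 3 and 4 lower, and the 3 became 1 without ESC replicate 2. The subunits Ezh2 (1.41 and 1.86), Eed (1.75 and 1.86) and Suz12 (0.78 and 0.57) were higher in ESC, with smaller log2 differences than their partner Jarid2, a comparison between genes that was not tested. Of 7 DNA methylation genes, 4 were higher in each contrast and 1 and 2 lower. The maintenance enzyme Dnmt1 differed by 0.13 (edgeR adjusted p = 0.404) and 0.71 (0.00173), its partner Uhrf1 by 1.92 and 2.74, and Dnmt3a by 0.38 (0.0401) and -0.88 (0.000788). Dnmt3a, the other de novo enzyme, thus lay between the fibroblast lines, whereas Dnmt3b and Dnmt3l did not overlap them.

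**Figure D5:**
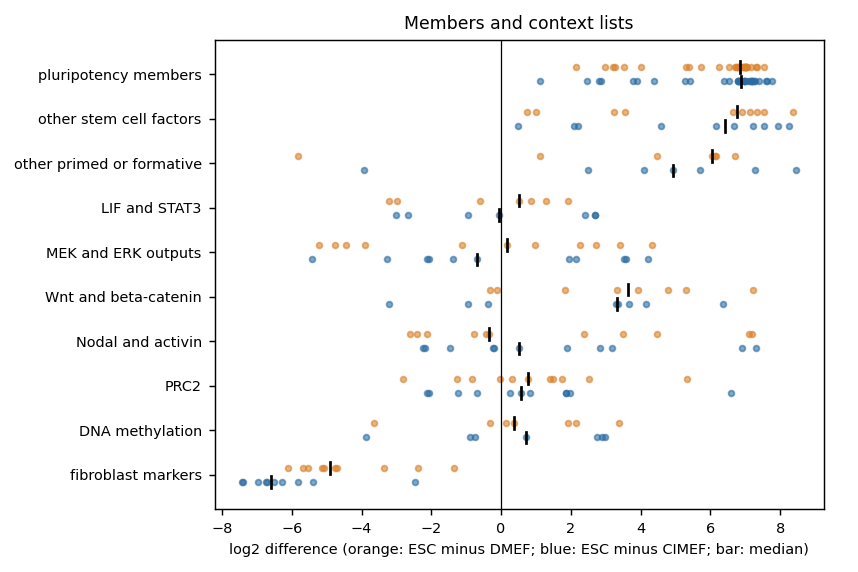
Fitted log2 difference of each gene, ESC minus DMEF in orange and ESC minus CIMEF in blue, for the 33 members, 8 pathway lists and the fibroblast markers, with the list median as a bar. Member medians lie at 6.85 and 6.89, the signalling, PRC2 and DNA methylation lists straddle 0, and the fibroblast marker medians lie at -4.91 and -6.60.

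Several members are neighbours in the genome (GRCm38.p6). Gdf3 (chromosome 6, 122605403 to 122610087), Dppa3 (122626424 to 122630271) and Nanog (122707489 to 122714633) lie within 109.2 kb. Next to Nanog, Slc2a3, a glucose transporter gene, was also higher in ESC (6.19 over DMEF and 6.49 over CIMEF). On the other side, Apobec1 passed in neither contrast (1.77, edgeR adjusted p = 0.0568, and -0.88, 0.227) and Mfap5 was lower in ESC (-3.60 and -3.36). Dppa4 and Dppa2 adjoin on chromosome 16 within 35.78 kb. Lefty2 and Lefty1 lie within 45.29 kb on chromosome 1, and the genes beyond Lefty1, Tmem63a (-4.52 and -4.19) and Ephx1 (-4.96 and -4.67), were lower in ESC. The neighbours named were taken from a window of 100 kb on either side.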

How the data were processed

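Poly(A)-selected, directional mRNA libraries were sequenced as single 40 nt reads, per the labels' protocols. The authors deposited raw counts, 1 whole number per Ensembl gene and library, with no normalization. The submitters' processing notes name cutadapt, STAR 2.4, HTSeq 0.9.1 and mm10/GRCm38, while strand setting, treatment of multiply mapped reads and annotation release are not given in the sources used here. Small-RNA tables were not used.

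A symbol was found in the reference table for 54409 of 54532 identifiers, and 32500 had a count. Counts were tested with edgeR 4.0.16 (R 4.3.3; TMM, its expression filter, quasi-likelihood test) over all 6 libraries, which leaves 3 residual degrees of freedom. P-values are two-sided, adjusted by the Benjamini-Hochberg method over 18094 genes, and passed at 0.05. SE is the log2 difference divided by the root of F. The fit was tested on simulated data. Replicates of each line differed beyond counting noise and were kept as separate libraries. All 33 members and the first 3 genes of each pathway list are named, with counts for whole lists; some items are not reported here. Members and lists were chosen with earlier results of these data known. A ratio per gene length was planned, but exon lengths were not used here, so CPM was summed. Motifs were matched letter by letter. Alternatives were DESeq2 1.42.0, 2 other scalings, no filter, a replicate block, 2 lines per fit, each library left out, and, added after seeing the data, removal of the common share.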

Additional observations from a re-analysis of the deposited data

How the results depend on the processing

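All 33 members were higher in ESC than in DMEF and than in CIMEF under every alternative run (33 and 33 also with the replicate block), and all 429 alternative log2 values per contrast kept their direction and call. For CIMEF against DMEF, 2 members higher and 1 lower became 4 higher with DESeq2, 4 with library totals only, and 4 higher and 2 lower with the common share removed, which was chosen after seeing the data; the replicate block gave 2 and 1. Leaving out 1 library gave 1 to 4 higher and 1 to 4 lower, and for all genes 1605 to 4370 higher and 2000 to 4009 lower, against 3528 and 3812. The low values came without DMEF replicate 2 (1605 and 2000), and ESC replicate 1 or 2 left out gave 2345 or 2391 lower. Of the member values in this contrast 405 kept their call, 16 gained it, 2 (Tet1) lost it and Klf2 reversed to -0.756 without CIMEF replicate 2 (0.749 without CIMEF replicate 1); 53 of the 405, in 22 members, changed sign without a call. The 5 members that failed the filter in the fibroblast libraries have no value in the fit of only these 2 lines, so this contrast has 5 values fewer. Elsewhere these 5 are counted in every contrast, and their calls as higher in ESC are not independent of the filter. With 1 library of a line left out, the other is assumed to vary like the other lines. Library totals alone moved the median of all genes to 0.411 (ESC minus DMEF), 0.233 (ESC minus CIMEF) and 0.16 (CIMEF minus DMEF), and the calls higher and lower to 7145 and 4472 in ESC against DMEF (5488 and 5513 with TMM) and to 4376 and 2759 in CIMEF against DMEF. The naive to primed ratio in ESC was 12.55 without Tfcp2l1 and Dnmt3b, while it was 135.6 and 97.3 in CIMEF and 76.4 and 70.3 in DMEF; the 2 planned gene lengths were not run. On unscaled totals, which were tried first, the common share rested on 94 genes with medians of 0.878%, 0.518%, 0.587% and 0.835%. Replicate differences of the lines correlated at 0.029, -0.004 and -0.008 across genes. Such values cannot show whether libraries of 1 number were handled together, and the labels do not say.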

Other observations

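The trophoblast, primitive endoderm and neural marker lists gave mixed directions. Of 4 neural markers tested, 3 and 2 were higher in ESC than in DMEF and in CIMEF, and 1 and 1 lower. In both contrasts, 5 of 5 germ cell and 2 of 2 tested mesoderm markers were higher. Of all genes, 30.3% and 38.2% were higher. T, Mixl1, Dazl, Nanos3 and Sycp3 had at most 9 counts in any fibroblast library, as did Cdx2, Sox7 and Sox1 of the mixed lists. They passed the filter on low counts only through ESC, so their calls are not independent of the filter. The other mesoderm markers did not pass it. The genes named next were chosen after their values were seen. ESC held T (Brachyury), a mesoderm factor, at 12.8 and 12.3 CPM against at most 0.193 CPM in a fibroblast library. Cdx2, a trophoblast factor, was at 15.4 and 15.5 CPM in ESC against at most 0.280. Of the 4 trophoblast markers tested, Cdx2 was higher and 2, Gata3 (log2 -6.58 over DMEF and -5.52 over CIMEF) and Krt7 (-4.40 and -2.32), were lower in ESC in both contrasts. The germ cell genes Ddx4 (8.88 and 10.0 CPM) and Dazl (8.14 and 6.22 CPM) were also higher in ESC, with log2 differences from DMEF of 4.00 and 6.57 (edgeR adjusted p = 7.2e-05 and 0.000322). Gata6, the primitive endoderm factor, was lower in ESC, at 0.493 and 0.558 CPM against 23.9 to 31.8 CPM in fibroblasts. Of the other primitive endoderm markers tested, Sox7 was higher in ESC (1.44 and 1.49 CPM against at most 0.129) and Gata4 passed in neither contrast.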
